A study of Homo sapiens with 6 samples.

Results

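Chromatin immunoprecipitation followed by sequencing (ChIP-seq) of 2 histone marks was used to describe 7 developmental transcription factor genes, GATA2, GATA3, GATA4, GATA6, TBX2, TBX3 and TBX5, in a pair of small cell lung cancer (SCLC) lines. H69M is a line derived from NCI-H69, called H69 here, and no treatment other than the derivation is given in the labels. Each line gave 1 H3K27ac library, 1 H3K27me3 library and 1 input library; the inputs were not analysed here. The labels say nothing of clones or separate cultures, so each value below comes from 1 library and no difference between H69M and H69 has a replicate check. A gene was represented by a given span on hg19 with 10 kb added on each side, and every deposited peak that touched such a window was a member. This rule gave 143 of the 149848 peaks in the 4 lists: 10 H3K27ac peaks in H69M and 14 in H69, and 78 H3K27me3 peaks in H69M and 41 in H69. The windows were 29.6 kb (TBX2) to 75.8 kb (GATA4) long. No hg19 annotation of other genes was used, so the labelled cell type was not checked against marker genes, and other GATA, T-box and cofactor genes were not counted.

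GATA proteins are zinc finger factors that bind the DNA word GATA, and T-box proteins such as TBX2 share a DNA-binding domain named after the mouse T gene, Brachyury. GATA2 and GATA3 are best known from blood stem cells and T cells, GATA4 and GATA6 from heart and endoderm, and GATA6 also from lung epithelium. TBX2, TBX3 and TBX5 pattern heart, limb and lung, with TBX2 and TBX3 acting mainly as repressors. Genes of this kind are classic targets of Polycomb repressive complex 2, which writes H3K27me3 around the CpG-rich starts of developmental genes that a cell does not use. H3K27ac occupies the same lysine and marks active promoters and enhancers.

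The 7 genes fell into different chromatin states. TBX2, TBX3 and GATA2 carried wide H3K27ac peaks in both lines and little or no H3K27me3. GATA4 and GATA6 carried dense H3K27me3 around their starts in both lines. GATA6 also carried an H3K27ac peak over its start in H69M and none in H69. GATA3 had H3K27me3 peaks in H69M and no peak of either mark in H69, and TBX5 had a few H3K27me3 peaks inside the gene in both lines and no H3K27ac peak.

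Promoter sequences are shown for GATA2, GATA3 and GATA6, whose windows fell into different states, and not for GATA4. The sequences are the 250 bases before RefSeq gene starts on GRCh38.p14, 5′ to 3′ on the gene's strand, with CpG dinucleotides in capitals. GRCh38 positions were not converted to hg19, and peaks were placed only by their distance from the hg19 gene start. For GATA2, start 1 is the outermost RefSeq start (chr3:128493202-128493451, minus strand) and start 2 lies 4.67 kb downstream of it (chr3:128488531-128488780, minus strand). For GATA3, start 4 (chr10:8053391-8053640, plus strand) and start 5 (chr10:8054438-8054687, plus strand) are counted from the outermost of the 6 RefSeq starts. GATA6 has 1 start in the table (chr18:22169339-22169588, plus strand).
GATA2 start 1: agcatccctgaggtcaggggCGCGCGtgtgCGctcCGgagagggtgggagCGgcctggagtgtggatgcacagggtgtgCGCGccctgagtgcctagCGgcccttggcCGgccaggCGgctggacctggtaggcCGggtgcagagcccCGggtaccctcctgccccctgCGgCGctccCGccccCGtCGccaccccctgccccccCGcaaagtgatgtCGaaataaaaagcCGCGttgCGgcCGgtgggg
GATA2 start 2: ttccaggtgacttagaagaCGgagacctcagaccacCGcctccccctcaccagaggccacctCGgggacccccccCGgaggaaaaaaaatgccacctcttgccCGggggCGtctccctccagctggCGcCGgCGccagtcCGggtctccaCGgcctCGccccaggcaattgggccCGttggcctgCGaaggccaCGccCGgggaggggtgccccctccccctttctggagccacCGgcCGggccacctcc
GATA3 start 4: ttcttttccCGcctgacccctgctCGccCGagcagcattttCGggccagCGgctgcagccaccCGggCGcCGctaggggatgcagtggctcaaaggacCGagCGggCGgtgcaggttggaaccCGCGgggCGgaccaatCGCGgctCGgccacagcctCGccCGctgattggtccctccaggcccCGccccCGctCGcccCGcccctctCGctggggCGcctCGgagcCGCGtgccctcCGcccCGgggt
GATA3 start 5: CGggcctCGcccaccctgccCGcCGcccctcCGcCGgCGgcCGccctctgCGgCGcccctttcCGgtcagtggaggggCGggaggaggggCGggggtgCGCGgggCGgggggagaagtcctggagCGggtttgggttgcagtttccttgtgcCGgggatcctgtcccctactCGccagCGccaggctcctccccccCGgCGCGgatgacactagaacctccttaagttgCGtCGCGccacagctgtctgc
GATA6: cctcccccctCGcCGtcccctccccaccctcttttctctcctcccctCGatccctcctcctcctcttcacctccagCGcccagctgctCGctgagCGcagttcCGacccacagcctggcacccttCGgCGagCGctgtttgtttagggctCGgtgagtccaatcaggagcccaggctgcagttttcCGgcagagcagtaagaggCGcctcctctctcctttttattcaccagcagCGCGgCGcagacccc

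The GATA2 starts held 24 and 18 CpG dinucleotides, GATA3 starts 4 and 5 held 30 and 26, and GATA6 held 16. GATA3 starts 1, 2, 3 and 6, which are not printed, held 11, 16, 15 and 4. The median was 11 over 34961 RefSeq promoters of the same length on chromosomes 1 to 22 and X. A count of 16 or more was found in 41.0% of those promoters and 30 or more in 12.5%. TBX5, with 2 RefSeq starts 430 bp apart, had 13 and 20. The GATA core word GATAA, searched on both strands, is found in 20.4% of all these promoters, and the T-box word GGTGTG, which can share at most 1 base with it, in 14.2%. None of the 5 sequences shown contains GATAA, and GGTGTG occurs once, in GATA2 start 1, 177 bases before the start. The T-box word also lay in GATA3 starts 1, 2 and 3, and GATAA in GATA3 start 6 and TBX5 start 1. GATA4, TBX2 and TBX3 were not searched.

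**Figure D1:**
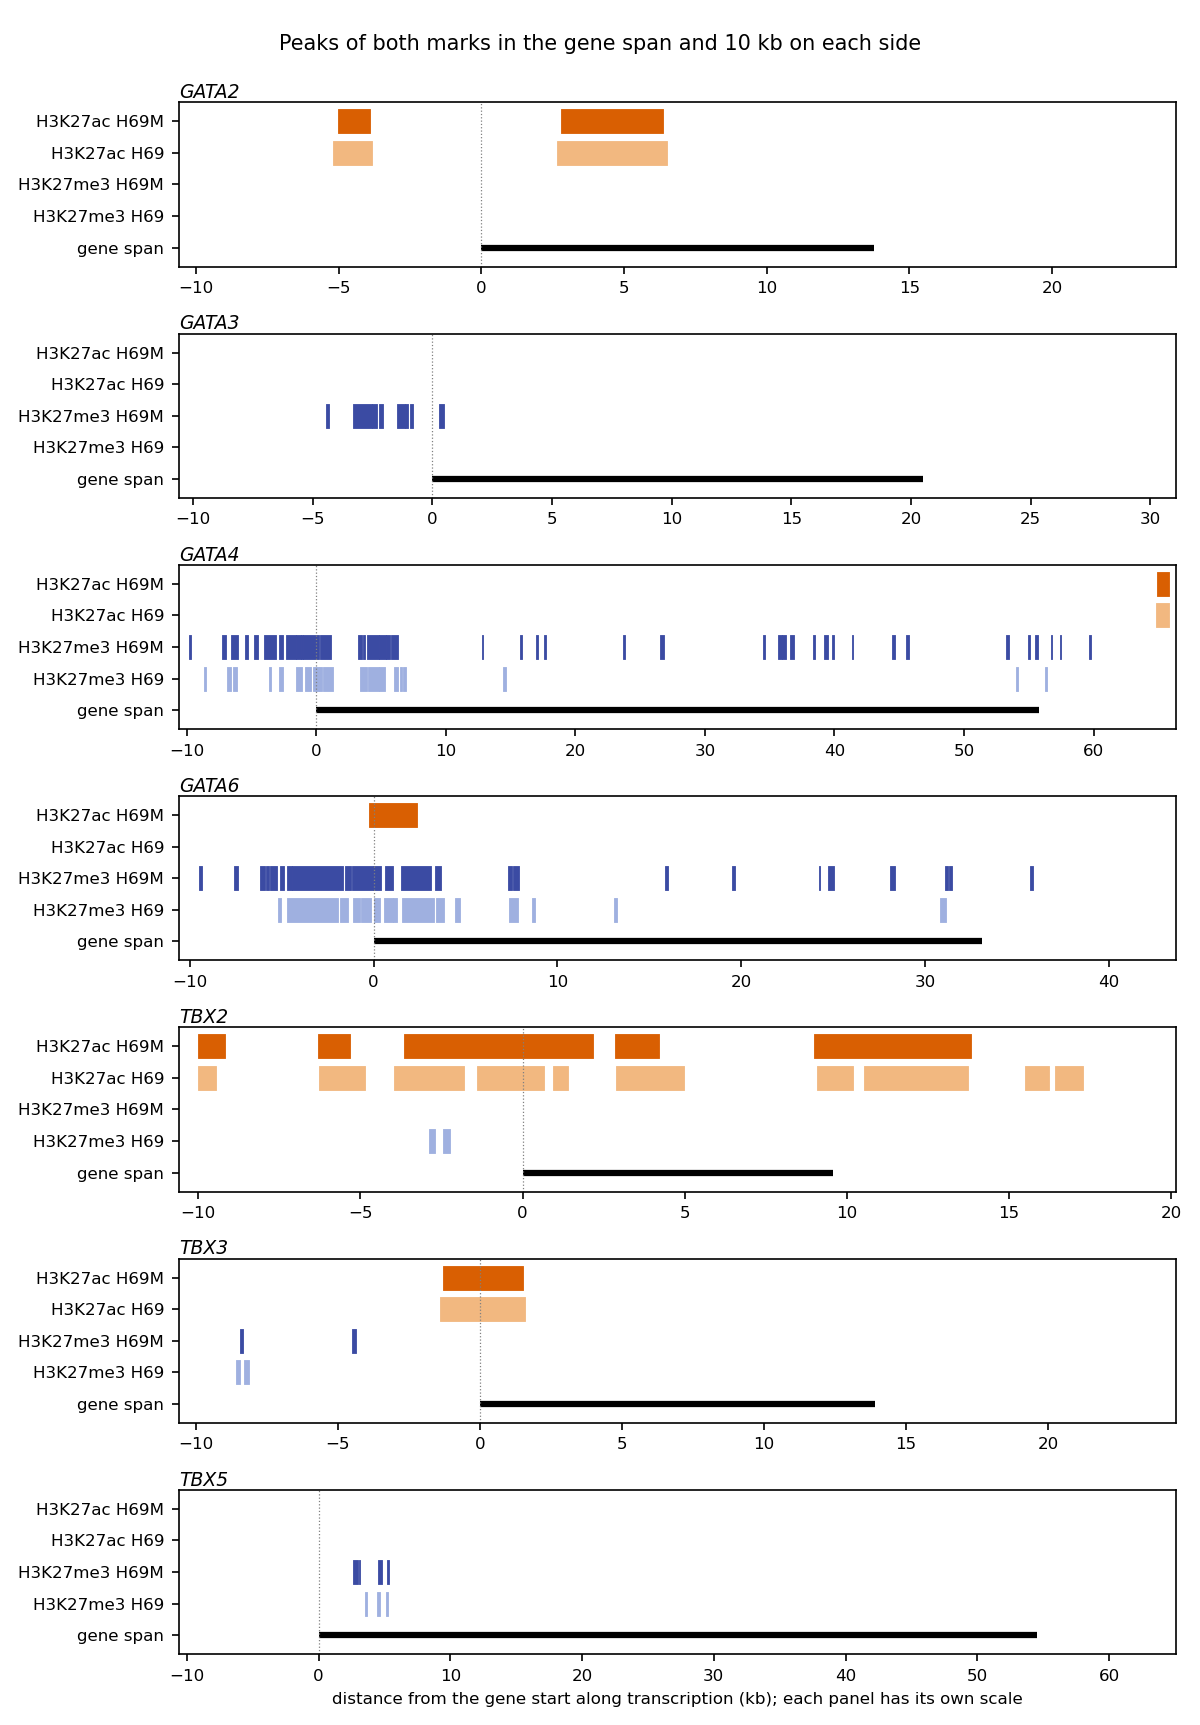
Peaks in each gene window by distance from the gene start in kb, one panel per gene, with the H69M list above the H69 list for each mark. Bars are peaks, clipped to the window, the black line is the gene span and the dotted line its start. H3K27ac (orange) lies over or near TBX2, TBX3 and GATA2 in both lines, while dense H3K27me3 (blue) surrounds the starts of GATA4 and GATA6.

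Both lists of a mark were counted over peaks on chromosomes 1 to 22 and X, 51091 H3K27ac peaks in H69M and 38255 in H69, and 37853 H3K27me3 peaks in H69M and 21638 in H69. The lists cover more of the genome in H69M, by 1.59 times for H3K27ac (76.8 Mb in H69M and 48.2 Mb in H69) and by 1.62 times for H3K27me3 (7.96 and 4.91 Mb). Read depth is unknown, and its part in any difference below was not tested. Scores are those the authors deposited, begin at 50 and are read only within a list. A missing peak says only that no peak reached the authors' threshold.

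GATA2 (hg19 chr3:128198265-128212030, minus strand), a regulator of blood stem and progenitor cells, had 2 H3K27ac peaks in H69M and 2 in H69, and no H3K27me3 peak in either line. The stronger lay inside the gene, at chr3:128205646-128209252 in H69M (score 3124) and chr3:128205520-128209384 in H69 (score 3100). It spanned 2.78 to 6.38 kb downstream of the hg19 gene start in H69M and 2.65 to 6.51 kb in H69. The H69M peak lay wholly within the H69 one. RefSeq start 2 of GATA2, shown above, lies 4.67 kb downstream of the outermost start on GRCh38, a distance that falls inside this peak in both lines. The hg19 start had no peak of either mark within 1 kb or within 2.5 kb. The weaker peak lay upstream, from -5.01 to -3.92 kb relative to the start in H69M (score 284.5) and from -5.20 to -3.82 kb in H69 (score 300.4). In all H3K27ac covered 4.70 kb of the window in H69M and 5.24 kb in H69, a ratio of 0.897. The nearest H3K27me3 peak to the start was 38.6 kb away in H69M (score 54.59) and 449.8 kb away in H69 (score 80.42). The antisense gene GATA2-AS1 overlaps GATA2 in RefSeq, and ChIP peaks carry no strand, so the mark cannot be assigned to one of them.

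GATA3 (hg19 chr10:8096667-8117164, plus strand), which directs T helper cell and luminal breast epithelial programmes, had no H3K27ac peak in either line, and the nearest one lay 235.5 kb upstream of the start in H69M and 235.4 kb upstream in H69. H3K27me3 was listed at GATA3 in H69M alone. There were 8 peaks over 2.03 kb in H69M and none in H69, where the nearest H3K27me3 peak, with a score of 64.5, lay 17.2 kb upstream, outside the window. The 8 peaks ran from -4.43 to 0.470 kb relative to the start, and 7 of them lay upstream. The strongest, chr10:8093334-8094132, was 799 bp wide with a score of 552, which 386 of the 37853 H69M peaks exceeded. The next had a score of 135.9 and lay between -1.48 and -1.17 kb, and the other 6 had scores from 52.7 to 86.27. The antisense gene GATA3-AS1 overlaps GATA3 in RefSeq. Counted back from the gene's far end, RefSeq start 5 differs from the hg19 span length by 13 bp. Start 4, with 30 CpG the richest of the sequences shown, differs by 1060 bp. Start 3, which is not printed and held 15 CpG, differs by 3465 bp. The strongest peak ran from -3.333 to -2.535 kb relative to the hg19 start. Peaks within 1 kb of the hg19 start had scores of 55.51 and 79.98. GATA3 was the only one of the 7 windows in which H3K27me3 differed by 2-fold or more in covered length, after 500 bp was added to each length, and with the gene span alone 0 windows did. Of the 12396 tiles of 40 kb with an H3K27me3 peak in either line, 10.8% passed the same limit upward and 2.86% downward. A tile with H3K27me3 in H69M and none in H69 was common, 47.2% of 9680 tiles, and GATA3 was the 1 of 5 windows with H3K27me3 in H69M that had none in H69.

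GATA4 (hg19 chr8:11561717-11617509, plus strand), a factor of heart and endoderm, had the most H3K27me3 peaks of the 7 windows, 40 in H69M over 13.1 kb and 19 in H69 over 6.85 kb, a ratio of 1.90. H3K27me3 was densest around the start in both lines, but upstream of it the mark covered a longer stretch in H69M. In the 10 kb upstream of the start, H3K27me3 covered 5.10 kb (51.0%) in H69M and 2.55 kb (25.5%) in H69, and in the first 10 kb of the gene it covered 3.86 kb in H69M and 3.75 kb in H69. The highest scoring peaks lay at the same place, 3.93 to 4.82 kb into the gene in H69M (chr8:11565642-11566539, score 697) and 4.03 to 4.85 kb in H69 (chr8:11565751-11566571, score 465). The gene start itself lay under a peak in both lines, chr8:11560733-11561956 in H69M (score 686) and chr8:11561433-11561925 in H69 (score 274). The remaining 45.8 kb of the gene differed most in number, with 19 peaks over 3.70 kb in H69M and 2 peaks over 0.377 kb in H69. Of those, 3 in H69M and 0 in H69 had a score of 100 or more. Among GATA4 peaks scoring at least 100, 11 of 16 in H69M and 11 of 12 in H69 overlapped a peak of the other line, and among the weaker ones 2 of 24 in H69M and 2 of 7 in H69 did.

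At the far end of the GATA4 window lay 1 H3K27ac peak, 64.9 to 66.3 kb downstream of the start in H69M (score 609) and 64.8 to 66.2 kb in H69 (score 113). It straddled the edge of the window and covered 0.913 kb of it in H69M and 0.987 kb in H69. Its full width was 1.45 kb in H69M and 1.40 kb in H69. The next protein-coding gene on that side is NEIL2, a DNA repair glycosylase, and which gene the peak belongs to was not tested. The RefSeq model of GATA4 on GRCh38 is 83.1 kb long, against the hg19 span of 55.8 kb.

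GATA6 (hg19 chr18:19749404-19782491, plus strand), which acts in endoderm, heart and lung epithelium, had H3K27me3 peaks near the top of both lists. There were 24 over 10.8 kb in H69M and 15 over 9.01 kb in H69, a ratio of 1.20. Just upstream of the gene a peak of 2.80 kb in H69M (chr18:19744955-19747749, score 2315) and one of 2.74 kb in H69 (chr18:19744715-19747458, score 1276) covered the same ground. Only 18 peaks of the H69M list and 21 of the H69 list scored higher. A further pair sat inside the gene, chr18:19750916-19752537 in H69M (score 1872) and chr18:19750939-19752669 in H69 (score 1576), with 32 and 13 higher peaks in their lists. At GATA6, all 9 H69 peaks scoring at least 100, and 8 of 12 in H69M, overlapped a peak of the other line. As at GATA4, the rest of the gene beyond 10 kb held more peaks in H69M, 7 over 1.36 kb, than in H69, 2 over 0.493 kb. The 10 kb upstream also had more in H69M, 6.03 kb against 4.36 kb in H69. The first 10 kb of the gene went the other way, with 6 peaks over 3.34 kb in H69M and 8 over 4.15 kb in H69.

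H3K27ac at GATA6 was listed in H69M only. The peak, chr18:19749169-19751749, was 2.58 kb wide, ran from 0.235 kb before the start to 2.35 kb into the gene and had a score of 299, which 45.4% of the H69M list exceeded. In H69 the nearest H3K27ac peak was 409.8 kb upstream. In H69M 4 H3K27me3 peaks lay partly or wholly under the H3K27ac peak, and the marks shared 1.90 kb. In H69 5 H3K27me3 peaks reached into the same interval, with scores from 86.7 to 1576. The H3K27me3 peak over the start had a score of 104 in H69M, and in H69 a peak beginning 16 bp past the start had a score of 121.6. Both lines thus had H3K27me3 within 1 kb of the start, and H69M also had H3K27ac there. Such overlap was rare over the lists, 1.56% of H3K27ac peaks in H69M and 0.805% in H69. The marks were read from separate libraries of many cells, so both marks on the same chromosomes and each mark in different cells cannot be told apart. GATA6 was the only window past 2-fold in H3K27ac, upward, and none was past it downward. Of the 27103 tiles with H3K27ac in either line, 35.8% passed upward and 8.32% downward. Among tiles with H3K27ac in H69M, 30.1% had none in H69. GATA6-AS1 lies within 10 kb of GATA6 in RefSeq, and the mark cannot be assigned to one of them.

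**Figure D2:**
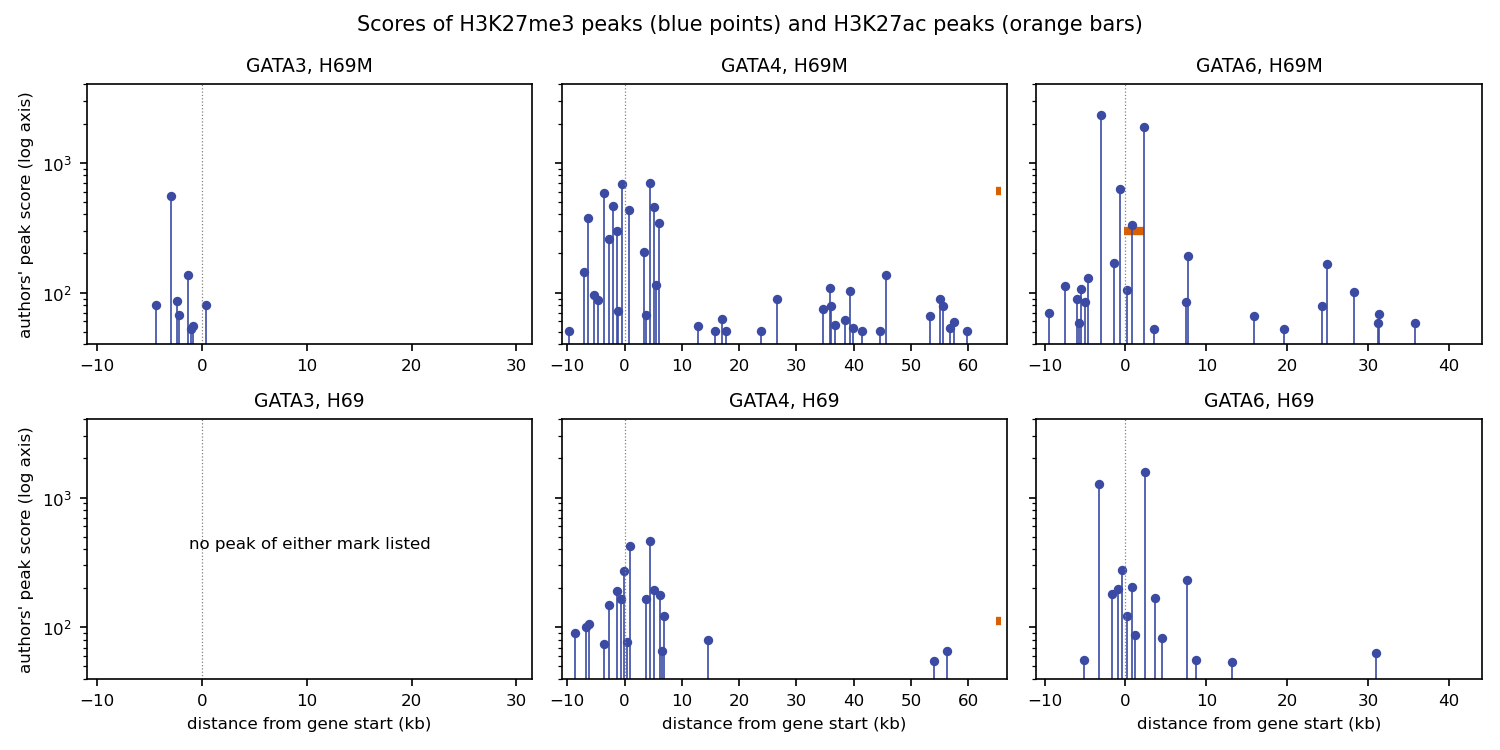
Authors' peak score on a log axis against distance from the gene start in kb for GATA3, GATA4 and GATA6, H69M in the upper row and H69 in the lower row. Blue points are H3K27me3 peaks at their centres and orange bars are H3K27ac peaks drawn over their extent. Scores are to be read within a list. GATA6 has its 2 highest peaks on either side of the start in both lines, and an orange bar at 299 over the start in H69M only.

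TBX2 (hg19 chr17:59477257-59486827, plus strand), a repressor known for holding back senescence and cell cycle inhibitors, had the most H3K27ac of the 7 windows. H3K27ac covered 13.9 kb (46.9%) of its window in H69M and 14.7 kb (49.7%) in H69, a ratio of 0.944. There were 5 peaks in H69M and 10 in H69. Outside the gene lay 5.48 kb upstream and 4.26 kb downstream in H69M, and 5.50 kb upstream and 5.45 kb downstream in H69. BCAS3, LINC02875 and TBX2-AS1 lie within 10 kb of TBX2 in RefSeq, and the mark cannot be assigned to one of these genes. Over the start, 1 H69M peak of 5.84 kb (chr17:59473599-59479433, score 3100) overlapped 3 H69 peaks, with scores of 1408, 3100 and 64.22. At the gene's end a peak of 4.83 kb in H69M (score 3100) overlapped 2 in H69, with scores of 304 and 3100. The H69 peaks without a counterpart were 2 weak ones, 15.5 to 17.3 kb past the start, with scores of 59.92 and 70.56. Scores pile up at 3100, with 6023 H3K27ac peaks at or above it in H69M and 3417 in H69, so peaks at this score cannot be ranked.

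H3K27me3 at TBX2 was listed in H69 alone, as 2 peaks over 0.374 kb with scores of 50.5 and 91.71. They lay between -2.88 and -2.23 kb, and the H69 H3K27ac peak scoring 1408 covered both. In H69M the same ground lay under the wide H3K27ac peak over the start, and the nearest H3K27me3 peak was 800.5 kb away. Of all H69 H3K27me3 peaks, 67.4% had no overlapping peak in H69M, and both TBX2 peaks were among them. With scores of 100 or more neither was kept, and no window of H69 had overlapping marks.

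TBX3 (hg19 chr12:115108059-115121969, minus strand), a close relative of TBX2 with a similar repressor role, had 1 H3K27ac peak in each line, over its start. It lay at chr12:115120445-115123286 in H69M and chr12:115120388-115123379 in H69, with a score of 3100 in both, and was 2.84 kb wide in H69M and 2.99 kb in H69. Its ratio was 0.950. The antisense gene TBX3-AS1 overlaps TBX3 in RefSeq, and the mark cannot be assigned to one of them. The H3K27me3 peaks were few and all scored under 100, 2 over 0.256 kb in H69M with scores of 53.84 and 72.62, and 2 over 0.338 kb in H69 with scores of 53.1 and 90.3. All lay upstream, between -8.46 and -4.38 kb in H69M and between -8.60 and -8.13 kb in H69, and a single pair overlapped, by 20 bp. TBX3 was the only one of the 4 windows with H3K27me3 in both lines where it covered a shorter length in H69M, against 38.9% of the 5107 tiles with H3K27me3 in both.

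TBX5 (hg19 chr12:114791735-114846247, minus strand), which patterns the heart and forelimb and is the neighbour of TBX3 on chromosome 12, had no H3K27ac peak in either line. The nearest was upstream, 138.3 kb from the start in H69M and 138.9 kb in H69. H3K27me3 was listed inside the gene as 4 peaks over 0.938 kb in H69M and 3 over 0.459 kb in H69, a ratio of 2.04 that was no longer past 2-fold after 500 bp was added. They sat between 2.61 and 5.35 kb past the start in H69M and between 3.55 and 5.25 kb in H69, and none lay within 1 kb of the start. Their scores were 54.49, 79.7, 142.1 and 216 in H69M, and 65.38, 67.66 and 119.1 in H69. Of the H69M list 4.50% scored above its highest TBX5 peak, and of the H69 list 9.14%. The peak with the score of 216, chr12:114843228-114843638, had no overlapping H69 peak. The antisense gene TBX5-AS1 overlaps TBX5 in RefSeq. The neighbours TBX3 and TBX5 thus differed in H3K27ac within each line, and neither differed between the lines in whether it was listed.

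**Figure D3:**
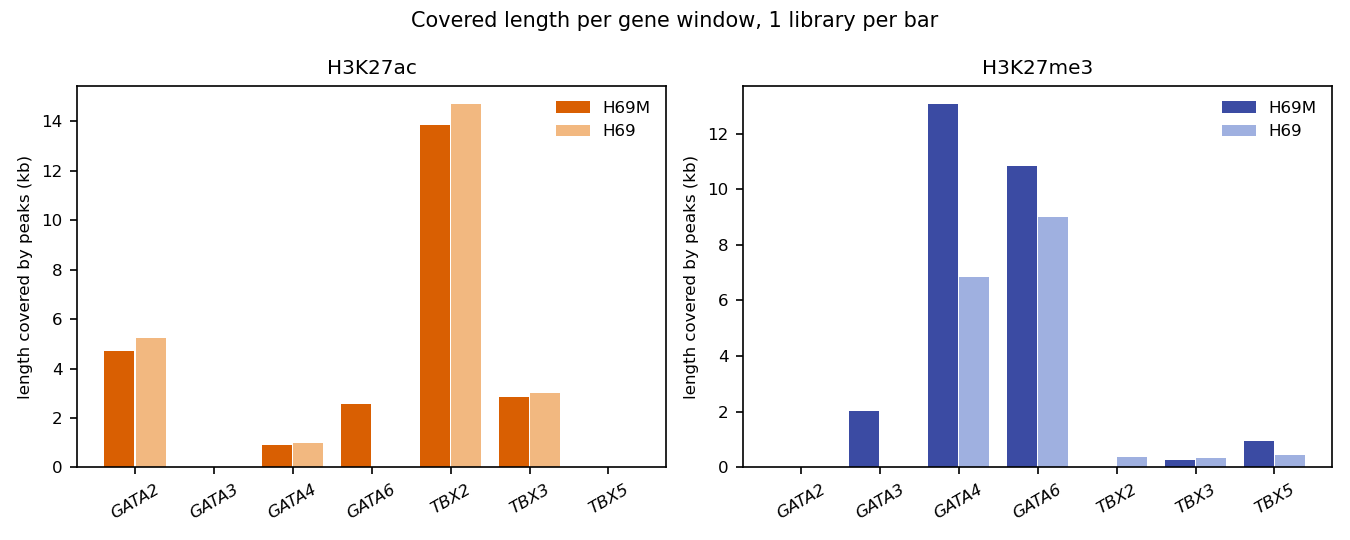
Length covered by peaks (kb) in each gene window, H3K27ac on the left and H3K27me3 on the right, with H69M left of H69. Each bar is 1 library, so there are no error bars. GATA6 in H3K27ac and GATA3 in H3K27me3 have a bar in H69M only, and TBX2 in H3K27me3 has one in H69 only.

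Over the 7 windows H3K27ac covered 24.9 kb in H69M and 23.9 kb in H69, a ratio of 1.04, below the 1.59 over all peaks. TBX2 held 13.9 kb of this in H69M and 14.7 kb in H69. The single GATA6 peak, listed in H69M only, held 2.58 kb and put the pooled ratio above 1. The 4 windows with H3K27ac in both lines had ratios from 0.897 to 0.950. The GATA4 ratio rests on 1 peak cut by the window edge, which in full was wider in H69M (1.45 kb) than in H69 (1.40 kb). At TBX2, with the most H3K27ac, the direction turned with the setting: its ratio was 0.944 here and 1.10 both with scores of 100 or more and with the gene span alone, while GATA2 and TBX3 stayed under 1 in both settings. The median was 0.934, against a median of 1.29 over the 17358 tiles with H3K27ac in both lines, of which 20.8% were covered over a shorter length in H69M. H3K27me3 covered 27.1 kb in H69M and 17.0 kb in H69, a ratio of 1.59, beside 1.62 over all peaks. Most of this length lay at GATA4 and GATA6, 13.1 and 10.8 kb in H69M and 6.85 and 9.01 kb in H69. With scores of 100 or more the ratio was 1.44 in the windows and 2.35 over all peaks, and with equal numbers of peaks 1.41 and 1.16, so the order of windows and list changed with the setting. The 4 windows with H3K27me3 in both lines had ratios of 0.757 (TBX3), 1.20 (GATA6), 1.90 (GATA4) and 2.04 (TBX5), with a median of 1.55 against 1.27 over 5107 tiles. Windows and tiles differ in length, and with 1 library per group no test of these differences was made.

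Peaks were then compared between the lines. Of 10 H3K27ac peaks in H69M, 1 had no overlapping H69 peak (10%, exact 95% binomial interval 0.253 to 44.5), against 48.4% of all H69M peaks, and the same 10% had none within 1 kb, against 43.1% of all. Of 14 in H69, 2 had none in H69M (14.3%, 1.78 to 42.8), against 22.5% of all H69 peaks. When an overlap of at least 50% of each peak was required, 20% in H69M and 42.9% in H69 had none, against 59.8% and 46.3% of all, so the H69 share lay near the background under that rule. For H3K27me3, 50 of 78 in H69M had no counterpart (64.1%, 52.4 to 74.7), against 81.1% of all, and 46.2% had none within 1 kb, against 59.8% of all. In H69 it was 13 of 41 (31.7%, 18.1 to 48.1), against 67.4%. Under the 50% rule the H3K27me3 shares were 83.3% in H69M and 68.3% in H69, against 91.5% and 85.1% of all. Intervals cover counting error only, and neighbouring peaks are not independent. H3K27ac peaks with a score of 100 or more had no overlapping peak for 1 of 10 in H69M and 0 of 11 in H69, against 36.4% of such peaks of the whole list in H69M and 11% in H69. H3K27me3 scores reached 100 for 32 of 78 in H69M (41.0%) and 22 of 41 in H69 (53.7%), against 18.1% and 13.8% of all peaks. Among those, 12 of 32 in H69M and 1 of 22 in H69 had no overlapping peak in the other line (37.5% and 4.55%), against 53.1% of such peaks in H69M and 28.9% in H69. Of the 32 in H69M, 16 lay at GATA4 and 12 at GATA6, and of the 22 in H69, 12 and 9. In the TBX windows 2 of 6 H3K27me3 peaks in H69M (33.3%) and 1 of 7 in H69 (14.3%) reached 100. At GATA3 all 8 H69M peaks had no counterpart. The pooled H3K27me3 shares thus mostly describe GATA4 and GATA6. With the limit of 100 set on both lists, H3K27me3 shares were 40.6% in H69M and 9.09% in H69, against 76.5% and 46.5% of all, and H3K27ac shares were 10% in H69M and 0% in H69, against 44.3% and 15.8% of all.

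At the gene starts, taken as the hg19 start with 1 kb on each side, H3K27ac was listed at 3 of 7 genes in H69M (GATA6, TBX2, TBX3) and 2 in H69 (TBX2, TBX3). H3K27me3 was listed at 3 in H69M (GATA3, GATA4, GATA6) and 2 in H69 (GATA4, GATA6). With scores of 100 or more H3K27me3 was listed at 2 starts in H69M and 2 in H69. With 2.5 kb on each side it was listed at 3 in H69M and 3 in H69. The difference in number was thus absent under both settings. With 2.5 kb, however, the genes still differed, GATA3 being listed in H69M alone and TBX2 in H69 alone. No share over all gene starts was computed, so these counts have no background. In H69M, then, only TBX5 and GATA2 had neither mark at the hg19 start, and GATA6 had both. Windows with both marks anywhere numbered 3 in H69M (GATA4, GATA6, TBX3) and 3 in H69 (GATA4, TBX2, TBX3). GATA4 counted only through the H3K27ac peak cut by the window edge, and TBX2 and TBX3 only through H3K27me3 peaks scoring under 100. With the gene span alone the numbers were 1 in H69M and 0 in H69. Of tiles with a peak of either mark, 8.97% in H69M and 9.18% in H69 held both, and tiles and windows differ in length. The marks overlapped in 1 window in each line, GATA6 in H69M and TBX2 in H69.

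**Figure D4:**
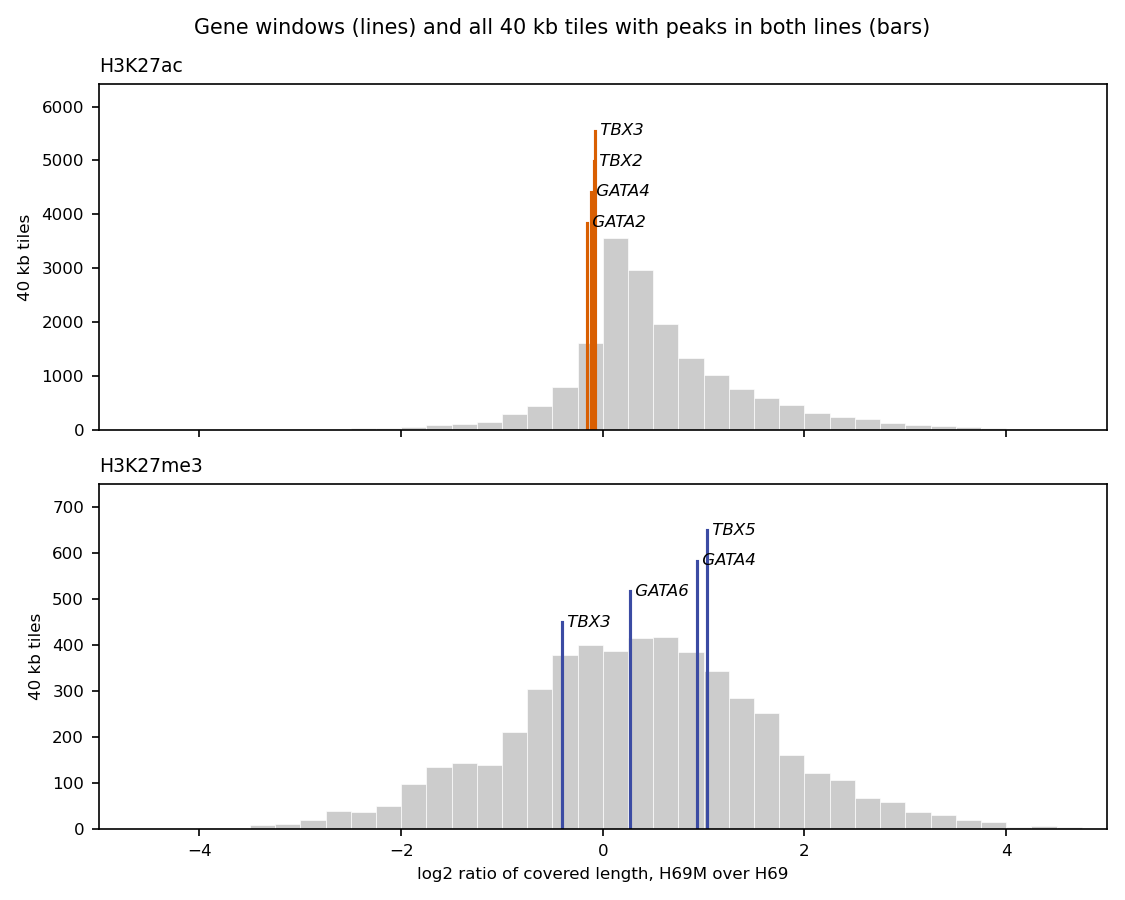
Numbers of 40 kb tiles with peaks in both lines (grey bars) by log2 ratio of covered length, H69M over H69, with the gene windows listed in both lines as coloured lines. Line heights carry no value. The H3K27ac lines sit together just below 0, left of the highest bars, and the H3K27me3 lines spread over the middle of the tiles. TBX2 in H3K27ac turns above 0 with scores of 100 or more or the gene span alone. The GATA4 H3K27ac peak is cut by the window edge and in full is wider in H69M.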

How the data were processed

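ChIP-seq peaks of H3K27ac and H3K27me3 in H69M and H69 were deposited as 1 list per library. Bowtie2, SAMtools 0.1.19 and the build hg19 are named in the submitters' processing notes. Peak names carry the word MACS per the files; for its version, settings and use of the input nothing was found in the labels or headers. The authors deposited a score per peak, on a scale not defined in the sources used here, so it was used only to describe, rank or filter peaks within lists. The deposited start and end of each peak were turned into 1-based positions.

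Lengths were computed after merging a list's own peaks and clipping them to the window. A peak had a counterpart when a peak of the same mark in the other line shared at least 1 bp with it. Intervals of shares are exact 95% ones (Clopper-Pearson) from SciPy 1.17.1. Tiles of 40 kb on chromosomes 1 to 22 and X gave the background. Figures were drawn with Matplotlib 3.10.9. Interval code was tested on simulated data. Named peaks are, for each gene, mark and line, the highest scoring one, those within 1 kb of the start and the highest scoring one without a counterpart, beside others picked after their values were seen. The genes, lists and alternatives were chosen with earlier results of these data known. Promoter sequences and gene neighbours came from RefSeq tables (GRCh38.p14), which matched all 7 genes by symbol, with promoters used for 4.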

Additional observations from a re-analysis of the deposited data

How the results depend on the processing

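With 1 library per group no replicate could be left out, and no test between the lines was made. No paired analysis was possible because each group holds 1 library and the labels give no replicate numbers. Of the alternatives' values for the summary results, 16 moved and 50 stayed close, within the exact interval for shares and within 1.5 times for counts and ratios. These limits are wide where numbers are small. A share of 20% in place of 10% for H69M H3K27ac peaks counted as close. So did 2 in place of 3 H69M gene starts with H3K27me3. The H3K27ac length ratio stayed between 1.04 and 1.26 and the H3K27me3 ratio between 1.41 and 1.59. With scores of 100 or more in both lists, the percent without a counterpart became 40.6 for H69M and 9.09 for H69 in H3K27me3 and 0 for H69 in H3K27ac, and in H69 windows with both marks were 1 and windows where they overlap 0. With gene spans alone, H69 H3K27ac peaks without a counterpart were 0%, windows past 2-fold upward in H3K27me3 were 0, windows with both marks were 1 in H69M and 0 in H69, and overlapping marks were in 0 windows in H69. When an overlap of at least 50% of each peak was required, 42.9% of H69 H3K27ac peaks and, in H3K27me3, 83.3% in H69M and 68.3% in H69 had no counterpart, against 46.3%, 91.5% and 85.1% of all peaks. When a peak within 1 kb was enough, an alternative chosen after seeing the data, H3K27me3 shares were 46.2% in H69M and 12.2% in H69, against 59.8% and 47.2% of all peaks. With 100 bp added in place of 500 bp, 1 window (TBX2) passed 2-fold downward in H3K27me3. For single genes, the TBX2 H3K27ac ratio turned to 1.10 with scores of 100 or more and with the gene span alone, and the H3K27me3 ratio moved to 0.399 at TBX3 with equal numbers of peaks and to 3.78 at TBX5 with scores of 100 or more, where few peaks were left. The causes of these shifts, beyond fewer peaks or a changed rule, were not tested. Read depth is unknown, so differences in depth could not be removed.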
